A study of Mus musculus with 9 samples.

Results

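The genes described here encode subunits of the oxidative phosphorylation machinery, the 5 protein complexes of the inner mitochondrial membrane that burn reducing equivalents with oxygen and make ATP. They were chosen by symbol among protein-coding genes: complex I genes beginning with Nduf followed by a, b, c, s or v, the complex II genes Sdha to Sdhd, complex III genes beginning with Uqcr, complex IV genes beginning with Cox4 to Cox8, ATP synthase genes beginning with Atp5, and the mitochondrially encoded genes. The rule found 98 of the 19305 genes listed in either table, 90 of them nuclear and 8 mitochondrial. The table with Th9 held 97 of 18816 genes and the table with Th17 held 98 of 18511. By symbol the rule also took the complex I assembly factors Ndufaf1 to Ndufaf7 and the genes Atp5s and Atp5sl, which are kept apart below as assembly or other genes. Ndufa4, named as a complex I gene but now regarded as a cytochrome oxidase subunit, and its paralogue Ndufa4l2 are counted with complex IV.

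LLC1, the mouse Lewis lung carcinoma line, was grown for 24 h in contact with an equal number of T cells, which the labels call Th0, Th9 or Th17 cells. The T cells were generated artificially, per the labels, which name no strain or cytokine. CD4-positive cells were sorted away and the total RNA of what remained was sequenced, in 3 libraries per group and 9 in all. All groups therefore contained T cells, with Th0 as the reference, and nothing in the labels says that the libraries came from separate cultures, so p-values measure only the spread between these samples. The design asks how the tumour cells differ after contact with each T cell subset.

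Electrons enter the chain at complex I (NADH dehydrogenase) or complex II (succinate dehydrogenase, also an enzyme of the tricarboxylic acid cycle), pass through ubiquinone to complex III, through cytochrome c to complex IV (cytochrome c oxidase), and the proton gradient so built drives complex V, the ATP synthase. Complexes I, III, IV and V are mosaics: their subunits come partly from nuclear genes and partly from the mitochondrial genome, while complex II is wholly nuclear. Complex I has core subunits that carry its cofactors and pump protons, and accessory subunits that surround and stabilise them.

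Depth was about 12719107 to 17505334 reads per library, recovered approximately from the values. A normalized count here is the number of reads after division by the size factor of its library, rounded; each comparison was made within 1 table, and both tables share the same Th0 libraries. Th0 replicate 1 stood apart: mt-Rnr1, mt-Rnr2 (the mitochondrial ribosomal RNAs) and Gm26917 together held 31.1% of its values. That share was 16.58% and 14.9% in Th0 replicates 2 and 3, ran from 16.13% to 18.57% in Th9, and ran from 20.71% to 21.8% in Th17. Results that rest on it are given with and without it. T cell markers were carried unevenly. In Th9, 20 of the 22 tested markers were higher than in Th0 and 0 lower, beside 13.4% and 11.9% of all genes tested. At an unadjusted p under 0.05 and with library weights 0 were also lower, by limma, beside 18.4% and 23.0% of all genes. The sum over the 26 listed markers ran from 1893 to 2799 against 111 to 258 in Th0, where Cd6 and Trbc1 were at 0 in every library. In Th17 the 15 listed markers summed to 80 to 102 against 109 to 240. Their part in the results was not tested, and in bulk RNA fewer cells of a type and less RNA per cell cannot be told apart. Of the markers of lung carcinoma, Krt8, Krt18 and Vim were present in every library. Krt8 fell in Th9, from 1688, 2470 and 2282 to 956, 1050 and 1255 (log2 -0.97, adjusted p = 3.2e-04 by limma), while Krt18 (log2 -0.32, adjusted p = 0.0899) and Vim (-0.08, adjusted p = 0.812) did not pass. Without Th0 replicate 1 all 3 were lower in Th9, and Krt8 and Krt18 in Th17, beside 19.1% and 9.7% of all genes tested. The part of this in the results was not tested. Sftpc stood between 0 and 6 in the table with Th9, and Cdh1, Epcam and Nkx2-1 were not analysed here.

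The mitochondrial genome encodes 13 of the subunits: 7 of complex I, cytochrome b of complex III, 3 of complex IV and 2 of complex V. Values for 7 of them (mt-Nd1, mt-Nd2, mt-Nd4, mt-Nd5, mt-Nd6, mt-Cytb and mt-Co1) carried the results. mt-Nd3 was listed only in the table with Th17, at 0, 0 and 0 in Th0 and 5, 0 and 1 in Th17. mt-Co2, mt-Co3, mt-Atp6, mt-Atp8 and mt-Nd4l were not analysed here. In the GENCODE M21 annotation (GRCm38), at least 99% of the length of mt-Co2, mt-Co3, mt-Atp6, mt-Nd3 and mt-Nd4l is also present, at 99% identity or more, in annotated nuclear copies on chromosome 1; 63.6% of mt-Nd4 and 31.3% of mt-Co1 is covered in the same way, and none of mt-Nd1, mt-Nd2, mt-Nd5, mt-Nd6 or mt-Cytb. Reads that fit both places can be lost or shared, depending on how they were counted, which is not stated. The first bases of mt-Nd3 are shown beside the copy Gm28438 because the 345 aligned bases differ at only 1 place, T3C, counted from 1 at the 5′ end of mt-Nd3; the capitals mark it. mt-Nd3 lies at chrM:9459-9476 on the plus strand for the stretch shown, and the copy spans chr1:24612775-24613119 on the minus strand.
mt-Nd3: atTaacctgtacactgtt
Gm28438: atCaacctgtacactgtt
Gm28438 itself had normalized counts of 309, 156 and 140 in Th0 and 220, 207 and 139 in Th9. These groups overlap.

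mt-Nd5 and mt-Nd6 are encoded on opposite strands and their ends overlap by 14 bases, which are in capitals below, each gene read 5′ to 3′ on its own strand. The stretches lie at chrM:13532-13565 (plus) for mt-Nd5 and chrM:13552-13585 (minus) for mt-Nd6.
mt-Nd5: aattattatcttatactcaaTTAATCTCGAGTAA
mt-Nd6: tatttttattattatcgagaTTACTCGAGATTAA
mt-Nd6 is the only one of the 13 on the minus strand, so without strand in the counting its reads could not be told from those of the opposite transcript.

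Per kilobase of exon, the mitochondrial mRNAs stood far above the nuclear genes. In Th0 (table with Th9) the mean normalized count per kilobase was 57800 for mt-Nd1, 52000 for mt-Co1, 39000 for mt-Cytb, 29100 for mt-Nd6, 26300 for mt-Nd2, 25600 for mt-Nd5 and 15500 for mt-Nd4. The highest nuclear members were the ATP synthase subunits Atp5b at 3170 and Atp5a1 at 2720, then Cox8a at 1860. These levels are a description of the Th0 libraries on the per-length scale, and Th0 replicate 1 raises the mitochondrial ones.

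In Th9 against Th0, the nuclear genes split in both directions. Of 85 tested (mean normalized count of at least 10), 6 were higher and 12 lower with an adjusted p under 0.05 in limma-trend, Benjamini-Hochberg over all genes. Among all 14475 genes tested the shares were 13.4% higher and 11.9% lower, beside 7.06% and 14.1% of these members. The median log2 fold change of the 85 was -0.04, against -0.01 over all genes, and it turned to 0.07 with every library brought to the same total. That scaling moved the median of all genes to 0.10. It gave 9 members higher and 2 lower, beside 2251 higher and 794 lower of all 14449 genes tested. The 2 lower members were Ndufa12 and Uqcrh (adjusted p = 0.032 and 0.0422 by limma). Without Th0 replicate 1, 8 were higher and 27 lower, with a median of -0.14, beside 18.1% and 19.1% of all genes. Groups did not overlap for 28 of the 85, beside 40.6% of all genes tested.

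The 12 lower genes were 7 of complex I, 2 of complex III and 3 of complex V. The 7 of complex I were all accessory subunits (7 of 28 tested). Among the 7 tested nuclear core subunits 0 passed the test in either direction, beside 13.4% higher and 11.9% lower of all genes tested. Of these core subunits, 0 had an unadjusted p under 0.05, beside 19.2% higher and 18.4% lower of all genes. With library weights 0 of them were higher and 2 lower, by limma, beside 22.8% and 23.0% of all genes. The difference between core and accessory subunits was not tested. Ndufa12, an accessory subunit of the arm that faces the matrix, had the largest fall. Its normalized counts were 779, 1204 and 1326 in Th0 and 577, 697 and 688 in Th9. Th0 replicate 1 was the lowest control, and the groups did not overlap. The log2 fold change was -0.72 (SE 0.16, adjusted p = 0.00691 by limma), and the call was kept in every alternative run. Ndufa12 lies at chr10:94198955-94221443 on the plus strand, and an annotated copy, Gm15920, shares 402 bases with it at 99.5% identity.

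Ndufv3, an accessory subunit of the NADH-oxidising tip, fell from 491, 559 and 620 to 404, 377 and 401 (log2 -0.49, SE 0.10, adjusted p = 0.00413 by limma). Ndufb8, of the arm within the membrane, went from 377, 386 and 440 to 306, 310 and 274 (log2 -0.43, SE 0.10, adjusted p = 0.00945 by limma). In both genes every Th9 library was below every Th0 library. Ndufa5, of the matrix arm, had 591, 865 and 842 in Th0 and 529, 527 and 553 in Th9 (log2 -0.49, adjusted p = 0.0153 by limma). The Th9 libraries were close together and the Th0 libraries spread out. Ndufc1, Ndufb7 and Ndufb10, all of the membrane arm, had log2 fold changes of -0.51, -0.46 and -0.39 (adjusted p = 0.034, 0.0224 and 0.0172 by limma). Ndufv3 and Ndufb8 kept the call with each library left out, but had an adjusted p of 0.0596 and 0.0961 when every library was brought to the same total. For the other 4, the adjusted p of Ndufa5 became 0.0582 or 0.0675 when Th0 replicate 2 or 3 was left out and 0.0641 for Th9 replicate 1 or 2; that of Ndufc1 0.106 or 0.0918 (Th0 replicate 2 or 3) and 0.164 or 0.0672 (Th9 replicate 1 or 2); that of Ndufb7 0.0639 (Th0 replicate 2) and 0.108 or 0.0993 (Th9 replicate 1 or 3); and that of Ndufb10 0.0591 or 0.0551 (Th0 replicate 2 or 3) and 0.0525 or 0.0854 (Th9 replicate 1 or 3).

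The core complex I genes Ndufs1 and Ndufv1 did not pass. Ndufs1, which carries iron-sulfur clusters, had 1297, 1668 and 1405 in Th0 and 1556, 1518 and 1649 in Th9, or 0.12 on the log2 scale (SE 0.10, adjusted p = 0.41 by limma). Ndufv1, which binds NADH, had 701, 852 and 929 against 778, 825 and 853, or -0.01 on the log2 scale (SE 0.11, adjusted p = 0.971 by limma). The groups overlapped in both. The 4 subunits of complex II also overlapped: the catalytic Sdha had 2712, 3383 and 3570 in Th0 and 2942, 3178 and 2809 in Th9, and the log2 fold changes were -0.11 for Sdha, -0.02 for Sdhb, -0.03 for Sdhc and 0.09 for Sdhd, with adjusted p from 0.508 to 0.926 by limma. Without Th0 replicate 1, Sdha was lower (log2 -0.23, adjusted p = 0.011 by limma).

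In complex III, 1 of 8 genes rose and 2 fell, beside 13.4% higher and 11.9% lower of all genes tested. Uqcrh, the hinge protein that helps cytochrome c dock, fell from 310, 259 and 307 to 229, 204 and 175 (log2 -0.53, SE 0.13, adjusted p = 0.00995 by limma). Uqcr11, a small subunit, fell from 174, 205 and 213 to 144, 144 and 150 (log2 -0.43, SE 0.12, adjusted p = 0.024 by limma). Uqcrc2, a core protein without a redox centre, rose from 347, 381 and 324 to 436, 396 and 467 (log2 0.30, SE 0.10, adjusted p = 0.048 by limma). The groups did not overlap in any of the 3. Uqcrc1 and Uqcrfs1, the other large core protein and the Rieske iron-sulfur protein, had log2 fold changes of -0.07 and 0.10 with overlapping groups (adjusted p = 0.764 and 0.706 by limma). The adjusted p of Uqcrh rose to 0.0501 when Th9 replicate 3 was left out, and that of Uqcrc2 to 0.166 (Th0 replicate 3) and 0.156, 0.0659 and 0.171 (Th9 replicates 1, 2 and 3), and to 0.0537 with no filter. Uqcr11 passed with Th0 replicate 1 left out and with no other library left out (0.0567 to 0.0984).

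In complex IV, 2 of 14 tested genes (14.3%) were called higher and 0 lower, beside 13.4% and 11.9% of all genes tested. At an unadjusted p under 0.05 the counts were 4 and 1, beside 19.2% and 18.4% of all genes. With library weights they were 5 and 2, by limma, beside 22.8% and 23.0% of all genes. Cox5a, a nuclear subunit on the matrix side, had 110, 95 and 112 in Th0 and 175, 181 and 114 in Th9 (log2 0.54, SE 0.18, adjusted p = 0.0442 by limma). Cox7a2, the form of subunit 7a made in most tissues, had 172, 155 and 187 against 279, 279 and 195 (log2 0.53, SE 0.15, adjusted p = 0.0216 by limma). In both genes Th9 replicate 3 lay just above the controls while the other Th9 libraries lay well above them. Without Th9 replicate 1 the adjusted p was 0.189 for Cox5a and 0.116 for Cox7a2, and without Th9 replicate 2 it was 0.195 and 0.111; without Th0 replicate 2 it was 0.121 and 0.068, and without Th0 replicate 3 it was 0.0757 for Cox5a, whose adjusted p was 0.0574 with the same total of nuclear protein-coding genes.

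The other complex IV genes of the isoform list did not pass. Cox4i1, the common form of the regulatory subunit 4, had 612, 757 and 678 in Th0 and 797, 786 and 736 in Th9 (log2 0.18, adjusted p = 0.178 by limma). Its hypoxia and lung form Cox4i2 was low, at 21, 8 and 20 against 10, 19 and 10. Cox8a had a log2 fold change of -0.28 (adjusted p = 0.128), which was -0.43 without Th0 replicate 1 (adjusted p = 5.4e-04 by limma). Cox6a1 and Cox7a2l had 0.17 and 0.03. The muscle forms Cox6a2, Cox7a1 and Cox8b stood between 0 and 14 in every library and were not tested. Ndufa4l2, a paralogue induced by hypoxia in other cells, had 13, 2 and 4 in Th0 and 17, 17 and 13 in Th9. Its log2 fold change of 1.48 (SE 0.53) had an adjusted p of 0.0606, and 0.00114 without Th0 replicate 1, where it was 2.10, by limma. The latter rests on controls of 2 and 4 counts, which are too shallow for a firm comparison.

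In the ATP synthase, 2 of 15 genes rose and 3 fell, beside 13.4% higher and 11.9% lower of all genes tested. The 3 lower genes belong to the peripheral stalk and the membrane part. Atp5h, subunit d of the stalk, had 704, 869 and 884 in Th0 and 577, 580 and 578 in Th9, so that the Th9 libraries lay within 3 counts of each other, below every control (log2 -0.49, SE 0.10, adjusted p = 0.00339 by limma). The gene lies at chr11:115415689-115419962 on the minus strand. Atp5j, the stalk's coupling factor 6, fell from 965, 1083 and 1108 to 764, 862 and 715 (log2 -0.43, SE 0.10, adjusted p = 0.00586 by limma). Atp5j2, subunit f, fell from 468, 502 and 394 to 374, 365 and 353 (log2 -0.31, SE 0.11, adjusted p = 0.0464 by limma). Atp5h and Atp5j kept the call with each library left out, but not after scaling all libraries to the same total (adjusted p = 0.0576 and 0.0908). For Atp5j2 the adjusted p was 0.14 when Th0 replicate 2 was left out, and 0.117, 0.13 and 0.134 when Th9 replicate 1, 2 or 3 was. It also missed with no filter (0.051), with library weights (0.0763) and under the 3 other scalings (0.0806 to 0.259).

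Atp5g2, 1 of the 3 genes for the c subunit that forms the rotating ring, had 164, 153 and 134 in Th0 and 249, 245 and 185 in Th9 (log2 0.58, SE 0.14, adjusted p = 0.0112 by limma). All Th9 libraries were above all controls. The other genes for the same subunit did not pass: Atp5g1 had 72, 93 and 80 against 83, 97 and 75, and Atp5g3 had 563, 559 and 606 against 490, 566 and 517, with log2 fold changes of 0.06 and -0.14 (adjusted p = 0.837 and 0.298 by limma). Annotated copies at 95% identity or more exist for Atp5g2 and Atp5g1. Atp5d, the delta subunit of the central stalk, rose from 645, 798 and 648 to 906, 911 and 868 (log2 0.37, SE 0.10, adjusted p = 0.016 by limma). With Th9 replicate 1 or 2 left out, the adjusted p was 0.0727 or 0.0667 for Atp5g2 and 0.0761 or 0.0744 for Atp5d, which also rose to 0.0692 when Th0 replicate 3 was left out. Atp5a1 and Atp5b had log2 fold changes of -0.19 and -0.12 (adjusted p = 0.359 and 0.596 by limma), which were -0.37 and -0.29 without Th0 replicate 1 (adjusted p = 1.9e-04 and 9.3e-04 by limma).

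Among the 9 assembly or other genes, Ndufaf5, a complex I assembly factor, was higher, with 110, 115 and 101 in Th0 and 130, 152 and 155 in Th9 (log2 0.42, SE 0.14, adjusted p = 0.0406 by limma). It lost the call without any 1 library other than Th0 replicate 1 (adjusted p from 0.0502 to 0.149). Over all 18 called members, 5 have an annotated copy elsewhere in the genome (Atp5g2, Atp5h, Ndufa12, Ndufc1 and Uqcr11), 4 overlap an exon on the opposite strand (Atp5d, Atp5j, Cox5a and Uqcrc2) and 2 one on the same strand (Atp5g2 and Ndufb8), so reads may be shared there.

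**Figure D1:**
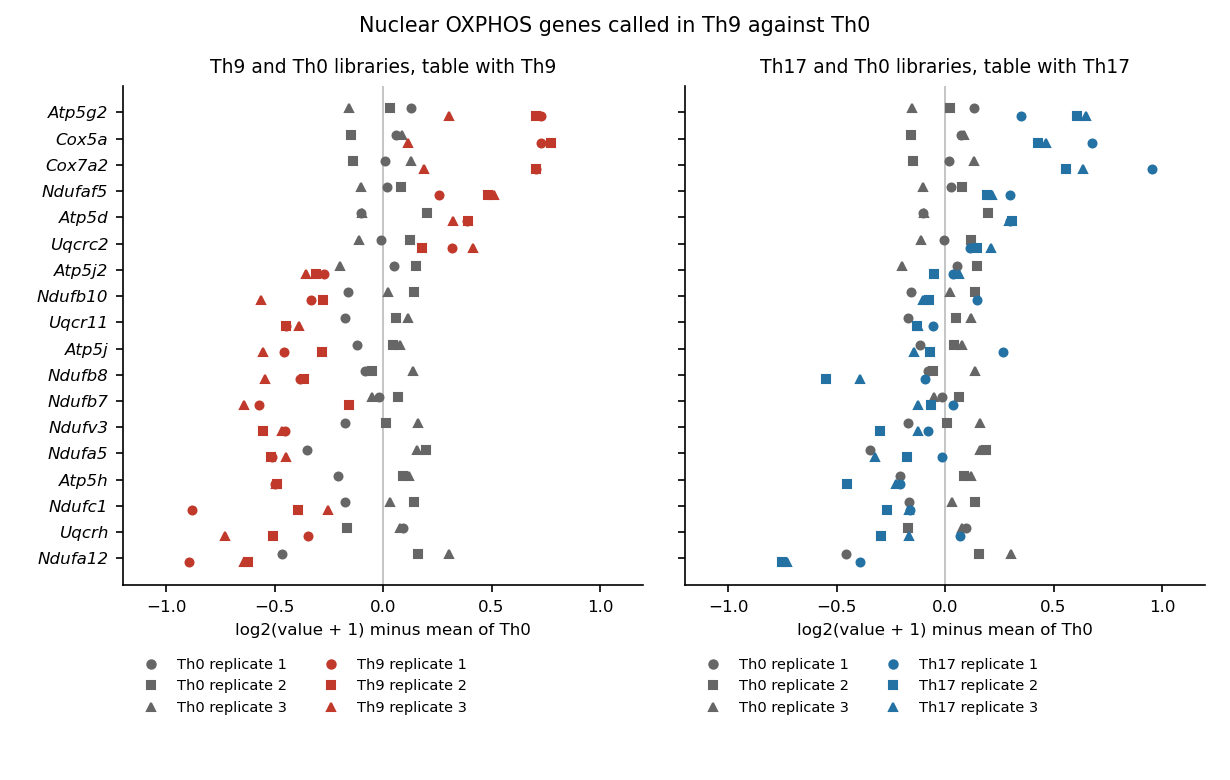
Each point is 1 library, placed by its log2(normalized count + 1) minus the mean of the 3 Th0 libraries, for the 18 nuclear genes called in Th9; the left panel shows Th9 and the right panel Th17, each with the Th0 libraries of its own table. The 12 lower and 6 higher genes of Th9 do not overlap their controls on the left, which was also a condition for naming them. For Cox5a and Cox7a2, Th9 replicate 3 lies just above the controls. On the right, where the same Th0 libraries serve as controls, Cox7a2 is the gene that was called.

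In Th17 against Th0, 1 of 86 nuclear genes tested was higher and 0 were lower, beside 1.19% and 0.39% of all 14342 genes tested. At an unadjusted p under 0.05 the counts were 12 and 7 (9.68% and 8.61% of all genes), and with library weights 10 and 22 (11.0% and 12.5% of all genes), by limma. The called gene was Cox7a2 (chr9:79755241-79759853, minus strand), with 177, 158 and 192 in Th0 and 340, 258 and 273 in Th17 (log2 0.72, SE 0.13, adjusted p = 0.0215 by limma). Every Th17 library was above every control. The call was lost without Th0 replicate 3 (adjusted p = 0.0582) or Th17 replicate 1 (0.139), 2 (0.0629) or 3 (0.115). The median log2 fold change of the 86 was -0.01, as over all genes tested (-0.01), and it was 0.01 with the same total per library.

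Without Th0 replicate 1, 8 nuclear genes were higher and 18 lower, beside 6.85% and 9.7% of all genes tested. The lower ones included core subunits. Ndufs7, a complex I core subunit with an iron-sulfur cluster, had 657, 808 and 807 in Th0 and 560, 582 and 573 in Th17, without overlap; its log2 fold change was -0.40 (adjusted p = 0.0658) with all libraries and -0.50 (adjusted p = 1.6e-04) without Th0 replicate 1, by limma. Ndufa12 had 802, 1230 and 1361 against 841, 655 and 664, with log2 fold changes of -0.63 (adjusted p = 0.102) and -0.85 (adjusted p = 6.0e-05) by limma. Th0 replicate 1 lay among the Th17 libraries there. Cox8a, a small complex IV subunit, had 951, 1248 and 1339 against 889, 870 and 880, with -0.41 (adjusted p = 0.105) and -0.56 (adjusted p = 4.9e-05) by limma.

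The most abundant nuclear members showed the same dependence on 1 control. Atp5b had 10648, 15363 and 15241 in Th0 and 11967, 11392 and 12048 in Th17, with log2 fold changes of -0.20 (adjusted p = 0.491) and, without Th0 replicate 1, -0.38 (adjusted p = 2.4e-04), by limma. Atp5a1 went from -0.26 (adjusted p = 0.338) to -0.44 (adjusted p = 6.5e-05) by limma. Uqcrc1 and Uqcrfs1 moved from -0.12 and -0.15 to -0.31 and -0.38, with adjusted p of 0.00197 and 0.00174 without it, by limma. Among the 8 higher genes without it, besides Cox7a2, Cox5a (114, 97 and 115 against 174, 146 and 150) and Atp5g2 (169, 156 and 138 against 196, 235 and 242) had log2 fold changes of 0.52 and 0.54 with all libraries (adjusted p = 0.0773 and 0.0648) and 0.56 and 0.60 without it (adjusted p = 0.0106 and 0.00342), by limma. Complex II did not pass in either fit: Sdha, Sdhb, Sdhc and Sdhd had log2 fold changes from -0.09 to 0.09, and from -0.19 to 0.01 without it.

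Ndufs1, Ndufv1, Cox4i1 and Uqcrc2 did not pass in Th17 with all libraries, and their groups overlapped. Ndufs1 had a log2 fold change of 0.06, Ndufv1 -0.18, Cox4i1 0.18 and Uqcrc2 0.16, with adjusted p from 0.396 to 0.767 by limma. For Ndufv1 it was -0.29 without Th0 replicate 1 (adjusted p = 0.00993 by limma). Cox6a1 and Cox7a2l had 0.27 and -0.06, Atp5g1 and Atp5g3 0.41 and -0.02. Cox4i2 had 21, 8 and 21 against 15, 19 and 22, and Cox7a1 14, 8 and 10 against 10, 11 and 14. Ndufa4l2, which stood at 2, 6 and 6 in Th17, was not tested there, nor were Cox6a2 and Cox8b.

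**Figure D2:**
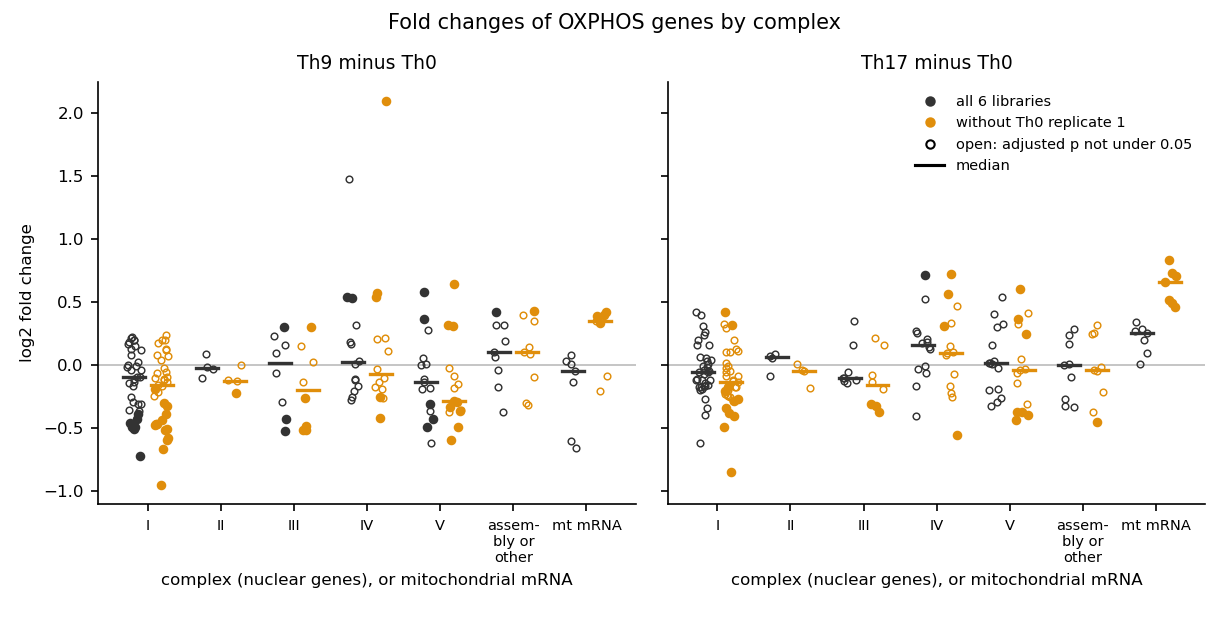
The log2 fold change of each tested member (points, filled where the adjusted p was under 0.05) is plotted by complex for nuclear genes and for the mitochondrial mRNAs, with all 6 libraries (grey) and without Th0 replicate 1 (orange); bars are medians. In Th9 the filled grey points of complex I all lie below 0, and in both panels the mitochondrial mRNAs shift upward, to medians of 0.35 and 0.66, once Th0 replicate 1 is left out; without Th0 replicate 3 instead, not drawn, the medians were -0.48 and -0.14.

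Summed over all nuclear members, the normalized count was 55710, 72112 and 71018 in Th0, against 59363, 62074 and 62295 in Th9. Th0 replicate 1 was the lowest of the 6 and the other Th0 libraries the highest. The Th9 mean was 0.924 of the Th0 mean with overlapping groups, and 0.856 of the other controls without overlap. With Th17 the sums were 57301, 73673 and 72885 against 65793, 61214 and 63435, or 0.934 and, without Th0 replicate 1, 0.866. By complex, without that library, complex V was 0.825 of the controls in Th9 and 0.813 in Th17, complex I 0.857 and 0.884, complex III 0.882 and 0.864, complex IV 0.924 and 0.964, and complex II 0.887 and 0.964. Atp5a1 and Atp5b held 75.0% of the complex V sum in these controls. They stood at 0.801 in Th9 and 0.758 in Th17, and the other 13 genes at 0.895 in Th9 and at 0.977, with overlap, in Th17. These are sums of normalized counts with no test, and complexes II and IV overlapped in Th17. As a percent of nuclear protein-coding values, the nuclear members stood at 0.947 of Th0 in Th9, and at 0.912 of Th0 replicates 2 and 3. In Th17 these ratios were 0.952 and 0.916. As a percent of all values they were 0.989 and 0.888 in Th9, and 0.942 and 0.846 in Th17. On each of these scales the groups overlapped with Th0 replicate 1 kept and did not overlap without it. The size of the ratio thus depended on the scaling, and the separation of the groups on that 1 library. With the same total of nuclear protein-coding genes and without Th0 replicate 1, the median log2 fold change of nuclear members was -0.045 in Th9 and 0.016 in Th17.

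Of the mitochondrial mRNAs, 0 of 7 passed the test in either direction in Th9 (13.4% higher and 11.9% lower over all genes) or in Th17 (1.19% and 0.39%). Of these 7, 0 had an unadjusted p under 0.05. With library weights 5 of 7 were higher in Th9 and 7 of 7 in Th17, beside 22.8% and 11.0% of all genes, by limma. Th0 replicate 1 had the highest value of every one of the 7, and Th0 replicate 3 the lowest in most of them. mt-Co1, the catalytic subunit of complex IV, had 126585, 67660 and 46690 in Th0 and 79733, 74738 and 71446 in Th9, which is 0.03 on the log2 scale (SE 0.31, adjusted p = 0.956 by limma). mt-Nd1, which helps form the ubiquinone site of complex I, had 92263, 43917 and 29878 against 32856, 33051 and 28275, which is -0.66 on the log2 scale (SE 0.31, adjusted p = 0.143 by limma). The Th0 libraries spread over a wide range and the Th9 libraries over a narrow one.

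The remaining complex I mRNAs encode subunits of the membrane arm, where protons are pumped. mt-Nd2 had 47576, 21586 and 12651 against 16534, 16592 and 13548 (log2 -0.60), and mt-Nd4 had 34982, 18666 and 10561 against 19573, 19175 and 16504 (log2 -0.05). mt-Nd5 had 73562, 38955 and 27537 against 46726, 44286 and 38858 (log2 0.01), and mt-Nd6 had 20770, 14061 and 10411 against 16112, 15922 and 13858 (log2 0.08). mt-Cytb, which carries the haems b of complex III, had 76454, 35933 and 21598 against 37123, 39036 and 30955 (log2 -0.14). The direction of mt-Nd4 and mt-Cytb turned without Th0 replicate 1, to 0.39 (adjusted p = 0.045) and 0.35 (adjusted p = 0.0583) by limma, and that of mt-Nd4 also with the same total per library (0.06). Without Th0 replicate 1, 4 of 7 were higher in Th9 and 0 lower, beside 18.1% and 19.1% of all genes tested. The 4 were mt-Nd4, mt-Nd5 (0.40, adjusted p = 0.0077), mt-Nd6 (0.34, adjusted p = 0.0104) and mt-Co1 (0.42, adjusted p = 0.00593), by limma. mt-Nd1 and mt-Nd2 were at -0.21 and -0.09 there.

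In Th17 the 7 mRNAs lay between the Th0 libraries. mt-Cytb had 78629, 36710 and 22163 in Th0 and 55519, 49519 and 47334 in Th17, which is 0.34 on the log2 scale (SE 0.36, adjusted p = 0.671 by limma). Without Th0 replicate 1 all 7 were higher, beside 6.85% higher and 9.7% lower of all genes tested. They ran from 0.46 for mt-Nd1 (adjusted p = 0.0128) to 0.83 for mt-Cytb (adjusted p = 0.0014), by limma. Without Th0 replicate 3, the lowest control, the median of the 7 turned from 0.25 to -0.14 in Th17, with no gene called. In Th9 it went from -0.05 to -0.48, and mt-Nd1 (-1.02, adjusted p = 0.0275) and mt-Nd2 (-1.05, adjusted p = 0.0198) were called lower, by limma, beside 1068 of all 14506 genes tested. The mitochondrial ribosomal RNAs moved with them: the ratio of mitochondrial mRNA to mt-Rnr1 plus mt-Rnr2 was 0.1532, 0.1563 and 0.132 in Th0, 0.1586, 0.1601 and 0.1526 in Th9, and 0.1593, 0.159 and 0.1546 in Th17. The ratio of mitochondrial mRNA to the nuclear members was 8.476, 3.339 and 2.243 in Th0, 4.189, 3.911 and 3.426 in Th9, and 4.953, 4.838 and 4.608 in Th17. The Th9 and Th17 libraries thus lay below Th0 replicate 1 and above both other controls. Whether the share of mitochondrial RNA moved the results by genome was not tested.

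**Figure D3:**
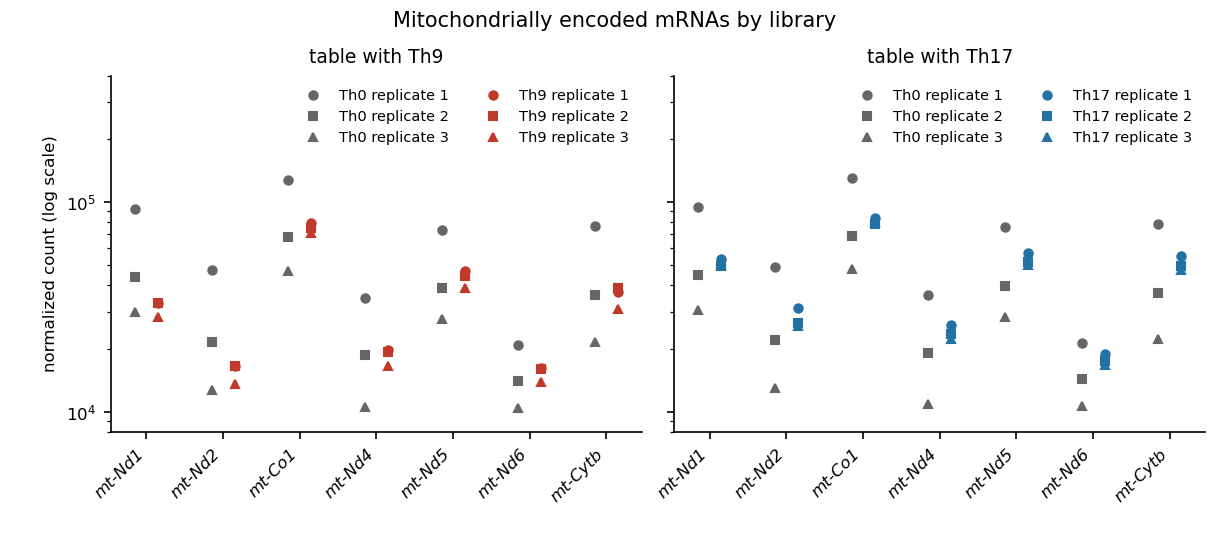
Normalized counts of the 7 mitochondrial mRNAs on a log scale, 1 point per library, in the table with Th9 (left) and the table with Th17 (right). Th0 replicate 1 is the highest point of every gene, and the Th9 or Th17 libraries sit close together, within the range of the Th0 libraries for most genes.

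The make-up of the mitochondrial mRNA, the share of each gene in the summed value of the 7, does not depend on the size factor or on the total amount. These shares were looked at after the values were known. mt-Nd1 made up 19.5%, 18.2% and 18.8% of it in Th0, 13.2%, 13.6% and 13.2% in Th9, and 16.5%, 16.7% and 17.1% in Th17. All Th9 libraries were below all Th17 libraries, and those below all Th0 libraries, replicate 1 included. The difference from Th0 was -5.49 percentage points in Th9 and -2.1 in Th17, each with a two-sided exact permutation p of 0.1, the smallest that 3 against 3 can give (0.233 adjusted over the 14 shares compared).

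In Th9, mt-Nd2 was also below Th0 without overlap (10.1%, 8.97% and 7.94% against 6.65%, 6.83% and 6.35%), while mt-Co1 was above (26.8%, 28.1% and 29.3% against 32.1%, 30.8% and 33.5%), as was mt-Nd5 (15.6%, 16.2% and 17.3% against 18.8%, 18.2% and 18.2%). Their differences were -2.38, 4.04 and 2.07 percentage points, with the same exact permutation p of 0.1. In Th17, mt-Cytb was above Th0 (16.2%, 14.9% and 13.6% against a mean of 16.6% ± 0.43, SD, n = 3, and a lowest of 16.2%), by 1.76 points (exact permutation p = 0.1), though Th0 replicate 1 lay just under the lowest Th17 library. mt-Nd4 and mt-Nd6 overlapped with Th0 in both comparisons. Since the shares sum to a fixed total, a lower share of one gene raises the others. The T cell marker sums given above were higher in Th9 and not in Th17, and their part in these shares was not tested.

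**Figure D4:**
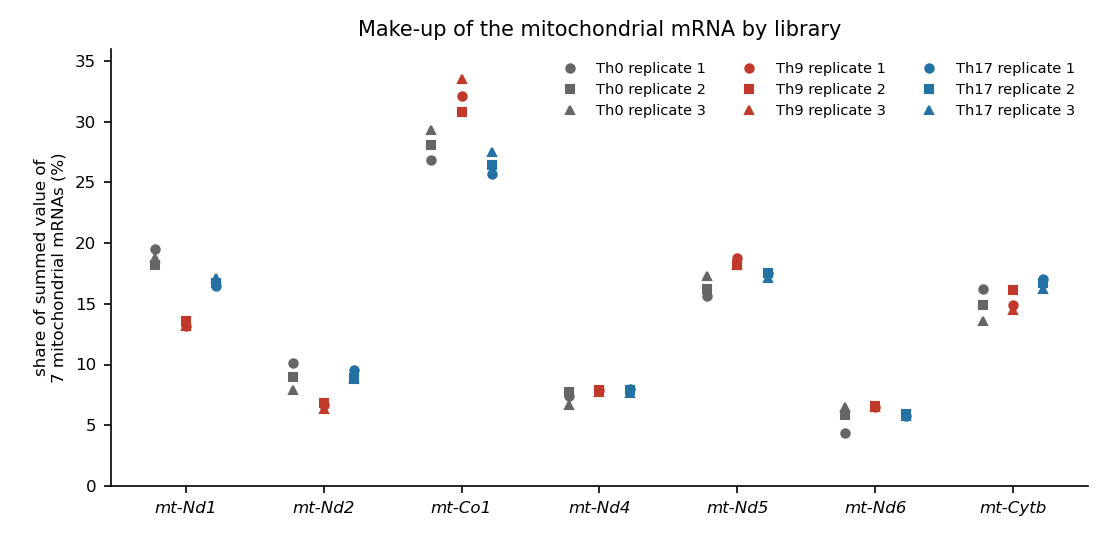
Share of each mitochondrial mRNA in the summed normalized count of the 7, in percent, 1 point per library; Th0 is drawn from the table with Th9. mt-Nd1 lies at 18.2% to 19.5% in Th0, 16.5% to 17.1% in Th17 and 13.2% to 13.6% in Th9, without overlap between the groups.

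Genes that serve the same machinery without matching the symbol rule were counted in 5 further lists, to be read beside the shares of all genes called: 13.4% higher and 11.9% lower in Th9, and 1.19% and 0.39% in Th17. Of 39 tested assembly factors of complexes I to V, 2 were higher and 2 lower in Th9, below those shares, and 2 higher and 0 lower in Th17. In Th17, 5 were higher and 7 lower at an unadjusted p under 0.05, by limma, beside 9.68% and 8.61% of all genes. With library weights 3 were higher and 9 lower there, by limma, beside 11.0% and 12.5% of all genes. Tmem70, an assembly factor of the ATP synthase, rose in both: it had 303, 397 and 304 in Th0 and 611, 571 and 476 in Th9 (log2 0.73, SE 0.13, adjusted p = 0.00145 by limma), and 312, 406 and 311 against 589, 502 and 500 in Th17 (log2 0.63, adjusted p = 0.027 by limma). Higd2a, a factor of respiratory supercomplexes, also rose in both, from 79, 71 and 79 to 143, 145 and 91 in Th9 (log2 0.69, adjusted p = 0.0187) and from 82, 73 and 81 to 162, 146 and 155 in Th17 (log2 0.96, adjusted p = 0.00584), by limma. These 2 comparisons share their controls. Uqcc2, for complex III, and Pet100, for complex IV, were lower in Th9, with log2 fold changes of -0.35 and -0.49 (adjusted p = 0.0362 and 0.0372 by limma). In Th9, Tmem70 kept its call with each library left out. The highest adjusted p was 0.104 for Higd2a (calls lost for Th0 replicate 2 and Th9 replicates 1 and 2), 0.167 for Uqcc2 (Th0 replicates 2 and 3, Th9 replicates 1 and 2) and 0.152 for Pet100 (every library but Th0 replicate 1); in Th17 it was 0.173 for Tmem70 (Th0 replicate 3 and each Th17 library) and 0.0686 for Higd2a (Th17 replicates 1 and 3). With every library scaled to an equal sum, Uqcc2 and Pet100 did not pass in Th9 (0.237 and 0.154).

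Of 24 electron carriers, ubiquinone enzymes and subunits outside the rule, 4 were higher and 0 lower in Th9, beside 13.4% and 11.9% of all genes. At an unadjusted p under 0.05, 4 were higher and 0 lower, by limma, beside 19.2% and 18.4% of all genes. With library weights 6 were higher and 3 lower, by limma, beside 22.8% and 23.0% of all genes. Among the 4 called genes were Etfa, which passes electrons from fatty acid oxidation (log2 0.40, adjusted p = 0.012), the glycerophosphate dehydrogenase Gpd2 (0.35, adjusted p = 0.019) and Pdss2, of ubiquinone synthesis (0.39, adjusted p = 0.0261), by limma. Etfa was also the 1 gene of this list called in Th17, where its counts were 296, 346 and 307 in Th0 and 429, 431 and 441 (log2 0.46, adjusted p = 0.0339 by limma). With a library left out, the adjusted p in Th9 reached 0.0579 for Etfa (Th9 replicates 2 and 3), 0.0923 for Gpd2 (Th0 replicate 3 and each Th9 library) and 0.136 for Pdss2 (Th0 replicate 3, Th9 replicates 1 and 3), and in Th17 0.209 for Etfa (Th0 replicate 3 and each Th17 library), which also missed with equal sums (0.0996).

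Of 23 genes of the tricarboxylic acid cycle and pyruvate dehydrogenase, 6 were higher and 0 lower in Th9, beside 13.4% and 11.9% of all genes, with a median log2 fold change of 0.18. At an unadjusted p under 0.05, 9 were higher and 1 lower, by limma, beside 19.2% and 18.4% of all genes. With library weights 8 were higher and 3 lower, by limma, beside 22.8% and 23.0% of all genes. Citrate synthase, Cs, had 1481, 1862 and 1759 in Th0 and 2256, 2225 and 2172 in Th9 (log2 0.39, SE 0.09, adjusted p = 0.01 by limma). Dlat, of pyruvate dehydrogenase, and Suclg2, of succinyl-CoA ligase, each had a log2 fold change of 0.38 (adjusted p = 0.00844 and 0.0104 by limma). Suclg2 passed with each library left out, while Dlat reached 0.0566 (Th9 replicate 1) and Cs 0.0586 (Th9 replicates 1 and 2). In Th17, 0 of the 23 passed. There 5 were higher and 0 lower at an unadjusted p under 0.05, by limma, beside 9.68% and 8.61% of all genes. With library weights 4 were higher and 2 lower, by limma, beside 11.0% and 12.5% of all genes.

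Of 31 genes for the upkeep, transcription, translation and turnover of mitochondrial RNA and DNA, 6 were higher and 2 lower in Th9, beside 13.4% and 11.9% of all genes. Fastkd1, of a family of mitochondrial RNA-binding proteins, had 149, 134 and 140 in Th0 and 239, 228 and 259 in Th9 (log2 0.77, SE 0.12, adjusted p = 4.5e-04 by limma). The matrix protease Lonp1 (0.29, adjusted p = 0.0192) and Mtpap, the mitochondrial poly(A) polymerase (0.36, adjusted p = 0.0216), also rose, by limma. Mterf4, which acts in mitochondrial ribosome assembly, fell from 545, 757 and 652 to 416, 402 and 466 (log2 -0.60, SE 0.12, adjusted p = 0.00339 by limma), and Polg, the mitochondrial DNA polymerase, was lower, at -0.28 (adjusted p = 0.0487 by limma). Fastkd1 and Mterf4 passed with each library left out. The adjusted p reached 0.099 for Lonp1 (each Th9 library), 0.119 for Mtpap (Th0 replicate 3 and each Th9 library) and 0.221 for Polg (Th0 replicates 2 and 3, Th9 replicates 1 and 2), which was 0.382 with equal sums. In Th17, 0 of the 31 passed. There 1 was higher and 7 lower at an unadjusted p under 0.05, by limma, beside 9.68% and 8.61% of all genes. With library weights 2 were higher and 8 lower, by limma, beside 11.0% and 12.5% of all genes.

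Of 11 tested regulators of mitochondrial biogenesis, 2 were higher and 1 lower in Th9, near the 13.4% and 11.9% of all genes: the nuclear receptor Esrra had 136, 117 and 130 in Th0 and 161, 178 and 187 in Th9 (log2 0.46, adjusted p = 0.0211 by limma), the coactivator Pprc1 had a log2 fold change of 0.24 (adjusted p = 0.0483 by limma), and Nrf1, a transcription factor of respiratory chain genes, fell from 813, 715 and 828 to 587, 558 and 668 (log2 -0.38, SE 0.10, adjusted p = 0.0142 by limma). With a library left out, the adjusted p reached 0.0851 for Esrra (Th0 replicates 2 and 3, Th9 replicates 2 and 3), 0.243 for Pprc1 (every library but Th0 replicate 1) and 0.0853 for Nrf1 (Th0 replicate 3, Th9 replicates 1 and 2); with equal sums it was 0.0503 for Pprc1 and 0.14 for Nrf1. In Th17, 0 of the 11 passed. There 0 had an unadjusted p under 0.05, by limma, beside 9.68% higher and 8.61% lower of all genes. With library weights 0 were higher and 1 lower, by limma, beside 11.0% and 12.5% of all genes.

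A palindromic form of the site that Nrf1 binds, the bases GCGCA followed directly by its reverse complement TGCGC, was searched for in RefSeq promoters (GRCm38.p6, 250 bases before to 50 after the start), which were found for 72 of the 98 members. It reads the same on both strands. It was present in 7 of the 72 (9.72%), against 245 of the 11369 genes of the expression tables matched by symbol (2.15%) and 290 of all 27025 genes of the RefSeq promoter set (1.07%), which include genes not measured here. Those 7 are Atp5g2, Atp5k, Cox6a1, Ndufa11, Ndufaf4, Ndufaf5 and Uqcrc1. The stretches before the start of 3 of them are shown with the motif in capitals, because 1 (Atp5g2) was called in Th9 and the others were not. They lie at chr15:102671055-102671114 (minus), chr5:115349086-115349145 (minus) and chr17:56717677-56717736 (plus).
Atp5g2: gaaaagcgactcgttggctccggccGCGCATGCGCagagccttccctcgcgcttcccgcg
Cox6a1: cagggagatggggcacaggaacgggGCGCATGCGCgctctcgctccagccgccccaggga
Ndufa11: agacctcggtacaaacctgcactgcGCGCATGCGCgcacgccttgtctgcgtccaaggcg
Of these, Atp5g2 had a log2 fold change of 0.58 in Th9, Cox6a1 0.17 and Ndufa11 -0.15. Of the 18 members called in Th9, 17 had a promoter in the RefSeq set and 2 held the motif, Atp5g2 and Ndufaf5.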

How the data were processed

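Both tables deposited by the authors hold 1 score per gene and library, a normalized count: the reads after division by that library's size factor, rounded to a whole number. This was checked on the regular steps of the values and on the Th0 libraries, which differed between the tables by factors of 1.0285, 1.0217 and 1.0262. Depth was estimated as value times size factor. Per the submitters' processing notes, the tools were STAR 2.4.0a, featureCounts 1.4.5-p1 (Subread) and DESeq2 1.62, with mm10 or GRCm38 as the build; their roles and the use of strand are not given in the sources used here. RNA was isolated with a DNase step and libraries were made with a stranded total RNA kit from 1 µg, per the labels' protocols. No column of values was unused (0).

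Each comparison was fitted within its table with limma-trend (limma 3.58.1, R 4.3.3) on log2(value + 1), keeping genes whose mean over the 6 libraries was 10 or more, group as the only term, and an adjusted p under 0.05 (Benjamini-Hochberg, over all genes) as a call. Fold changes on this scale understate the change of low genes. The fit was tested on simulated data with the same spread setting for every gene and no library that stood apart. That run does not cover a control such as Th0 replicate 1. Alternatives were another pseudocount (5), no filter or a mean of at least 50, 3 other scalings, library weights, a replicate block and leaving out each library. Shares of mitochondrial mRNA were compared with exact permutation tests. Exon lengths, overlaps and copies (at least 100 bases at 95% identity) came from GENCODE M21, promoters from RefSeq.

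The text names the mitochondrial members, up to 12 called nuclear members per direction with the largest change, a mean of at least 50 and no overlap, fixed core and isoform genes, and up to 3 called genes per direction of each other list. Ndufs7, the 7 promoter matches, Gm28438 and Gm15920 were named after their values were seen. The members and lists were chosen with earlier results of these data known.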

Additional observations from a re-analysis of the deposited data

How the results depend on the processing

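With all libraries, the members called in Th9 were 6 higher and 12 lower (nuclear) and 0 and 0 (mitochondrial), and 20 higher and 5 lower in the other lists; in Th17 they were 1 and 0, 0 and 0, and 3 and 0. Leaving out each library gave, for Th9, 0 to 8 nuclear higher, 6 to 27 nuclear lower, 0 to 4 mitochondrial higher, 0 to 2 mitochondrial lower, 5 to 22 other higher and 1 to 18 other lower, and for Th17 0 to 8, 0 to 18, 0 to 7 and 0 to 0 in the same order, then 0 to 4 and 0 to 23. With each library left out in turn, calls over all genes ran from 1015 to 2594 higher and 838 to 2742 lower in Th9. They ran from 14 to 974 and 2 to 1378 in Th17. Genes tested numbered 14366 to 14544 in Th9 and 14209 to 14431 in Th17. The largest nuclear counts came without Th0 replicate 1, as did the largest of these counts over all genes. Library weights gave Th0 replicate 1 a weight of 0.221 in Th9 and 0.193 in Th17. They gave 12 nuclear higher, 29 nuclear lower, 5 mitochondrial higher, 32 other higher and 22 other lower in Th9. In Th17 these counts were 10, 22, 7, 11 and 23. Over all genes the weights gave 3302 higher and 3326 lower of 14475 in Th9, and 1572 and 1789 of 14342 in Th17. With them mt-Cytb and mt-Nd4 turned to 0.486 and 0.549 in Th9. The same total per library gave 2 nuclear lower and 1 other lower in Th9, beside 794 lower of all 14449 genes tested. The same total without mt-Rnr1, mt-Rnr2 and Gm26917 gave 10 nuclear higher in Th9, beside 2479 higher of all 14467 genes tested. In Th17 it gave 1 nuclear lower and 1 other lower, beside 102 lower of all 14329. The same total of nuclear protein-coding genes gave 2 nuclear lower and 1 other lower in Th17, beside 107 lower of all 14335 genes tested. Together with leaving out Th0 replicate 1, chosen after seeing the data, it gave 13, 19, 5, 33 and 8 in Th9 (mt-Cytb 0.443, mt-Nd4 0.479). In Th17 that run gave 11, 15, 7, 17 and 13. Over all genes it gave 3585 higher and 1908 lower of 14310 in Th9, and 1895 and 784 of 14151 in Th17. With 1 library left out, the log2 fold change of mt-Nd4 in Th9 ran from -0.477 to 0.387, the latter without Th0 replicate 1. A mean of at least 50 gave 1 other lower in Th17, beside 66 lower of all 10637 genes tested. The cause was not tested.

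Whether the replicate numbers pair the samples cannot be told from 3 libraries per group. Deviations of same-numbered libraries correlated at 0.111, -0.011 and 0.145 in Th9 and -0.055, -0.079 and 0.039 in Th17. In Th9, replicates 1 and 3 correlated best with their own number and replicate 2 did not. In Th17 only replicate 3 did. With the replicate block, 2 mitochondrial members and 8 genes of the other lists were lower in Th9, and 2 of the other lists lower in Th17. Over all genes the block gave 2114 higher and 1962 lower in Th9, and 186 and 76 in Th17. Over all genes, calls ranged in Th9 from 1015 to 3585 higher and 794 to 3326 lower (main 1937 and 1716), and in Th17 from 14 to 1895 and 2 to 1789 (main 170 and 56). Genes under about 10 counts, such as the muscle isoforms, are too shallow to compare.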
